A study of Mus musculus with 12 samples.

Results

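The 58 genes described here encode the machinery that copies DNA in S phase: the origin recognition complex, the licensing factors, the MCM helicase and its activators, the polymerases, the sliding clamp and its loader, single-strand binding and Okazaki fragment processing, nucleotide supply, chromatin assembly and fork protection. They were chosen by name as a functional list, not by their values, although earlier results of these data were known at the time. All 58 were found among the 53379 genes counted. RNA came from the external granule layer of the mouse cerebellum, the sheet of dividing granule neuron precursors under the pial surface, taken by laser capture from the central lobules of C57BL/6 mice at postnatal day 6. Mice in which SnoN, the transcriptional regulator that Skil encodes, was conditionally knocked out were compared with wild-type littermates, and the comparison asked which transcripts of the layer depend on SnoN. The promoter that drives the recombinase, the deleted part of Skil, the sex of the mice and the number of animals behind a library are not known from the sources used here.

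There were 6 wild-type and 6 knockout libraries, named WT or KO with their label number. A robust PCA led the submitters to mark WT2 and KO4 as outliers. The comparison therefore used 5 against 5 libraries, and the marked libraries are given beside it. KO2 carries a wild-type genotype tag but a knockout title and was kept with the knockouts. Since nothing says that libraries came from separate animals, the p-values measure only the spread between these libraries. Total gene counts per library were 7520076 (WT6) to 15083086 (KO8). Skil itself read 47.5, 57.8, 57.3, 38.5 and 48.5 CPM, TMM-scaled counts per 1000000 counts, in the wild-type libraries, in the order WT1, WT3, WT5, WT6, WT7 that is kept throughout, and 36.1, 36.7, 20.9, 30.1 and 29.9 CPM in KO2, KO3, KO5, KO6 and KO8. The 5 knockout values lay below the 5 wild-type values (log2 fold change -0.70 (SE 0.15), two-sided exact permutation p = 0.00794, the smallest that 5 against 5 libraries can give), although the adjusted p of edgeR's quasi-likelihood test was 0.124. The marked libraries read 76.5 CPM (WT2) and 14.01 CPM (KO4).

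The precursor markers Atoh1 (mean 92.2 CPM in wild type and 95.8 in knockout), Barhl1 (158 and 117) and Zic1 (801 and 983) were present in the layer, and Gabra6, a receptor subunit of mature granule neurons, was at 0 in 10 of the 12 libraries. Markers of neighbouring cells were also present: the 10 Purkinje cell markers summed to 271 to 379.8 CPM in the wild-type libraries, 334 to 582 in the knockout libraries, 719.9 in WT2 and 313 in KO4, and the 10 astrocyte and Bergmann glia markers to 595 to 1002, 815 to 1245, 2008 and 871 CPM. The 10 microglia markers summed to 38.4 to 45.6 CPM in wild type and 32.4 to 48.4 in knockout. At an unadjusted p under 0.05, 11.8% of all genes were higher in knockout and 9.97% lower (7.48% and 8.12% with the GC trend removed). Of the 9 tested Purkinje cell markers 5 were higher and 1 lower, with a median log2 fold change of 0.40. With the GC trend removed 3 were higher and 1 lower, with a median of 0.25. Of the 13 precursor markers 3 were higher and 1 lower (2 and 1 with that trend removed). Of the 10 glial markers 1 was higher (0 with it removed). Of 7 tested oligodendrocyte lineage markers 3 were lower and 0 higher, with a median log2 fold change of -0.39 (-0.32 with the GC trend removed), and their sum over 10 markers was 319 to 389 CPM in wild type, 309.9 to 331 in knockout, 349 in WT2 and 318 in KO4. Of 7 tested markers of differentiating granule neurons 2 were higher and 3 lower (1 and 1 with the GC trend removed). All 10 listed, Gabra6 among them, summed to 2296 to 2636.5 CPM in wild type and 2135.9 to 2775.4 in knockout. Their sum was 2406.7 CPM in WT2 and 2541.8 in KO4. None of these lists had a marker at 0 in all libraries, and their part in the values below was not tested. In such bulk tissue, fewer dividing cells and less RNA per dividing cell cannot be told apart.

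Replication starts in G1, when the origin recognition complex, Cdc6 and Cdt1 load the ring of Mcm2 to Mcm7 onto DNA around origins. In S phase the kinase Cdc7 with Dbf4, together with Cdc45, Mcm10 and the GINS complex, turns the ring into a moving helicase, behind which polymerase alpha with primase lays primers, polymerase epsilon copies the leading strand and polymerase delta the lagging strand. Many of these genes are textbook targets of E2F factors, which the retinoblastoma protein holds back until cyclin D kinases inactivate it, and in granule precursors that step lies downstream of Sonic hedgehog from Purkinje cells.

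The promoters of the genes were searched for exact forms of the E2F motif. Windows of 300 bases, 250 before the start site and 50 after, were taken from RefSeq (GRCm38.p6) and matched 49 of the 58 genes, all but Gins1, Gins2, Gins4, Gmnn, Mcm4, Pole, Prim2, Rfc2 and Tipin. An E2F-type motif, searched as TTTCCCGC, TTTGGCGC, TTTCGCGC or TTTGCCGC on both strands, was found for 17 of the 49 genes (34.7%), against 704 of all 27025 genes in the table (2.6%) and 1 of 27 genes of G2 and mitosis (3.7%). The CHR-type motif TTTGAA, typical of mitotic genes, was found for 9 of the 49 (18.4%), 21 of the 27 mitotic genes (77.8%) and 20.2% of all genes. The CCAAT box was found for 28 of the 49 (57.1%), 21 of the 27 (77.8%) and 41.1% of all genes. Median GC content of the windows was 61.3% for the replication genes, 59.0% for the mitotic genes and 52.7% for all genes, and the motif shares were not matched for it. A match is a description of the letters only. Other forms of the E2F motif were not searched, so a gene without a match may still hold one.

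Shown here are the 250 bases before the start site for 3 genes with matches in that stretch, for Mcm2 as a partner of the same ring without a match in the window, and for Chaf1a, the gene with the lowest fold change below. Matches are in capitals, each sequence reads 5′ to 3′ along the gene, and positions count back from the start site. Mcm5 (chr8:75109259-75109508, plus strand) has matches at bases 153 to 146 and 149 to 142, which overlap. Mcm6 (chr1:128359706-128359955, minus strand) has 1 at 47 to 40 and an overlapping pair at 110 to 103 and 106 to 99. Pola1 (chrX:93632156-93632405, minus strand) has 1 at 138 to 131. Mcm2 (chr6:88898781-88899030, minus strand) and Chaf1a (chr17:56040166-56040415, plus strand) have none of the searched forms. The Chaf1a stretch does hold ttcccgccaaa, which comes near them but was not among the forms searched.
Mcm5: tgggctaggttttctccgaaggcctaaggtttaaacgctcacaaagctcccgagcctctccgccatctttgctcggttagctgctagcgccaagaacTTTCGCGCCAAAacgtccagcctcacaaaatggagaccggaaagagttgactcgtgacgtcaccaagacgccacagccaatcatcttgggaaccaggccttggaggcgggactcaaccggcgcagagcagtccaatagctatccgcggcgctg
Mcm6: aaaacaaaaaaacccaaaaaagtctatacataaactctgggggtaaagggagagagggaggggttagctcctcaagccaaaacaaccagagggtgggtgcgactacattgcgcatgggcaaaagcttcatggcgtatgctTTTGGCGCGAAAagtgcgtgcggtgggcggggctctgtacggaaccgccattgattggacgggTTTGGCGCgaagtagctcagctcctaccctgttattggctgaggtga
Pola1: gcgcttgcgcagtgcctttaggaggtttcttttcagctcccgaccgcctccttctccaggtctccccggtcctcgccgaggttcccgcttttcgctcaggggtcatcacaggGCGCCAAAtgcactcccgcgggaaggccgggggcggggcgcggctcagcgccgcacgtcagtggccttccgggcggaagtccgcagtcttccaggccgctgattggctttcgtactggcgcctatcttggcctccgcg
Mcm2: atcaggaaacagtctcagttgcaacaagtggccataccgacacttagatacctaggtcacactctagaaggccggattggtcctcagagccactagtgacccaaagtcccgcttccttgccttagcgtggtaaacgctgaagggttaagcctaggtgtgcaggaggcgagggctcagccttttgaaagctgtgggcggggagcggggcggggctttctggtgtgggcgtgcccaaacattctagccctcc
Chaf1a: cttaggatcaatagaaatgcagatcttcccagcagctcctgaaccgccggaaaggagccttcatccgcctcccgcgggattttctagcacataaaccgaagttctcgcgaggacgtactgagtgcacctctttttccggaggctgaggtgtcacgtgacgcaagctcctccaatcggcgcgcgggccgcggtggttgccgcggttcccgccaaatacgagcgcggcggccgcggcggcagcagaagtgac

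Matches elsewhere included Cdc6 at 138 to 131 and Orc1 at 27 to 20 before the start, and Cdt1 at 33 to 40, Lig1 at 27 to 34 and Mcm3 at 20 to 27 and 39 to 46 after it. Mcm7 had 1 on each side, at 165 to 158 before and 17 to 24 after. Between knockout and wild type, the 17 genes with a match had a median log2 fold change of -0.063 and the 32 without one of -0.022, values that became -0.097 and -0.10 once each library's trend on GC content was removed. Both sets spanned 0, from -0.46 to 0.39 with a match and from -0.65 to 0.32 without.

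Transcript levels in wild type spanned a wide range when set per kilobase of exon, a scale that allows a rough comparison between genes. The length was that of all annotated exons of a gene together, for example 11012 bases for Rrm1 and 6089 for Tyms. It can exceed the length of the main transcript, which lowers the value, so the order given here depends on the annotation. Dut, the enzyme that clears dUTP from the nucleotide pool, stood highest at 296 ± 12.7 CPM per kb (SD, n = 5). Next came Rpa3, the small subunit of the single-strand binding protein RPA, at 169.6 ± 15.6, then the fork protection gene Tipin at 141 ± 5.40 and the clamp loader gene Rfc4 at 141 ± 16.2, which did not differ from each other beyond their spread. Rrm2, the regulated subunit of ribonucleotide reductase, followed at 117 ± 14.8, Pcna, the sliding clamp, at 102 ± 9.92 and the GINS gene Gins1 at 91.4 ± 8.95 CPM per kb. The 6 MCM ring genes lay close together, between 28.98 ± 4.08 (Mcm3) and 53.7 ± 8.21 (Mcm5) CPM per kb.

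At the low end were Cdc6 (3.61 ± 0.457 CPM per kb), Wdhd1 (3.43 ± 0.505), Chaf1a (2.89 ± 0.607), Orc1 (1.96 ± 0.229), Pole, the leading strand polymerase (1.62 ± 0.110), and Fen1, the flap nuclease of Okazaki processing (1.14 ± 0.255). Within the origin recognition complex the level ran from that of Orc1 up to 60.0 CPM per kb for Orc6, and within polymerase delta from 10.6 ± 1.02 for Pold3 up to 58.96 ± 8.96 for Pold2. Fen1 is overlapped on the opposite strand by Tmem258 and Gm10143, and 22 of the 58 genes overlap an opposite-strand gene whose reads the library kit cannot tell apart, among them Orc4 (Acvr2a and Mbd5), Cdc45 (Ufd1), Lig1 (Zswim9), Rnaseh2a (Prdx2), Rfc4 (Eif4a2) and Tk1 (Afmid). How reads lying on both genes were counted is not given, so the levels of overlapped genes, Fen1 among them, may be too low or too high. Pcna and Tyms have named pseudogenes that could share their reads. The spread between wild-type libraries was smallest for Tipin (coefficient of variation 3.82%) and largest for Pole2, an accessory subunit of polymerase epsilon (40.9%).

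**Figure D1:**
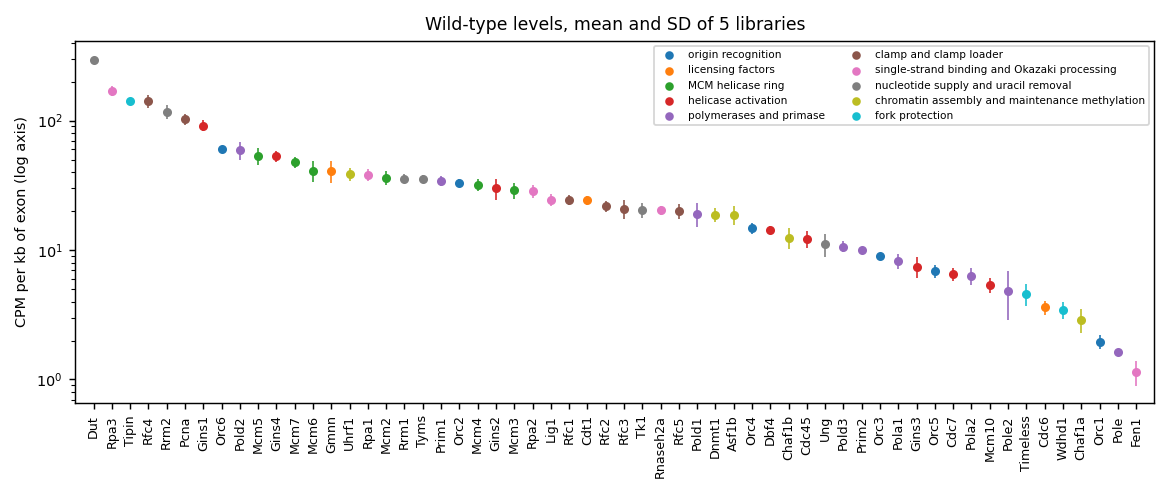
Wild-type transcript level of each of the 58 genes in CPM per kilobase of all annotated exons (log axis), ordered from high to low and coloured by role. Points are means and bars SDs of 5 libraries. Dut is highest at 296 ± 12.7 and Fen1, which opposite-strand genes overlap, lowest at 1.14 ± 0.255. The 6 MCM ring genes are in the upper part.

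Between knockout and wild type, few replication transcripts differed by more than the spread between libraries. Of the 58 genes, all of which passed the filter on low counts, 0 had an adjusted p under 0.05 (Benjamini-Hochberg, over 13442 genes) in edgeR's quasi-likelihood test, against 0.0223% of all genes (3). The smallest adjusted p among them was 0.131. At an unadjusted p under 0.05, 3 were higher in knockout (5.17%, against 11.8% of all genes) and 6 lower (10.3%, against 9.97% of all genes). With library size alone as the scale, which moved the median of all genes to -0.083, the counts were 0 higher (against 6.58% of all genes) and 12 lower (20.7%, against 14.8% of all genes). DESeq2 called 1, Chaf1a (adjusted p = 0.031), and limma voom on 12 libraries called 0. For no gene of the list did the 5 knockout values all lie above or all below the 5 wild-type values, which was so for 1.04% (above) and 1.31% (below) of all genes. The 3 with higher values were Rpa3, Orc4 and Pola1, and the 6 with lower values Chaf1a, Mcm5, Pold1, Mcm6, Mcm7 and Lig1. Fold changes were positive for 26 genes and negative for 32, and 37 were within 0.2 of 0 on the log2 scale. Their median was -0.05, with quartiles of -0.23 and 0.075, beside 0.001 over all genes with quartiles of -0.20 and 0.22. Summed over the list, the libraries held 6685 to 7682 CPM in wild type (7071 ± 388, SD, n = 5) and 6663 to 7431 CPM in knockout (7007 ± 389), so the groups overlapped almost fully.

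**Figure D2:**
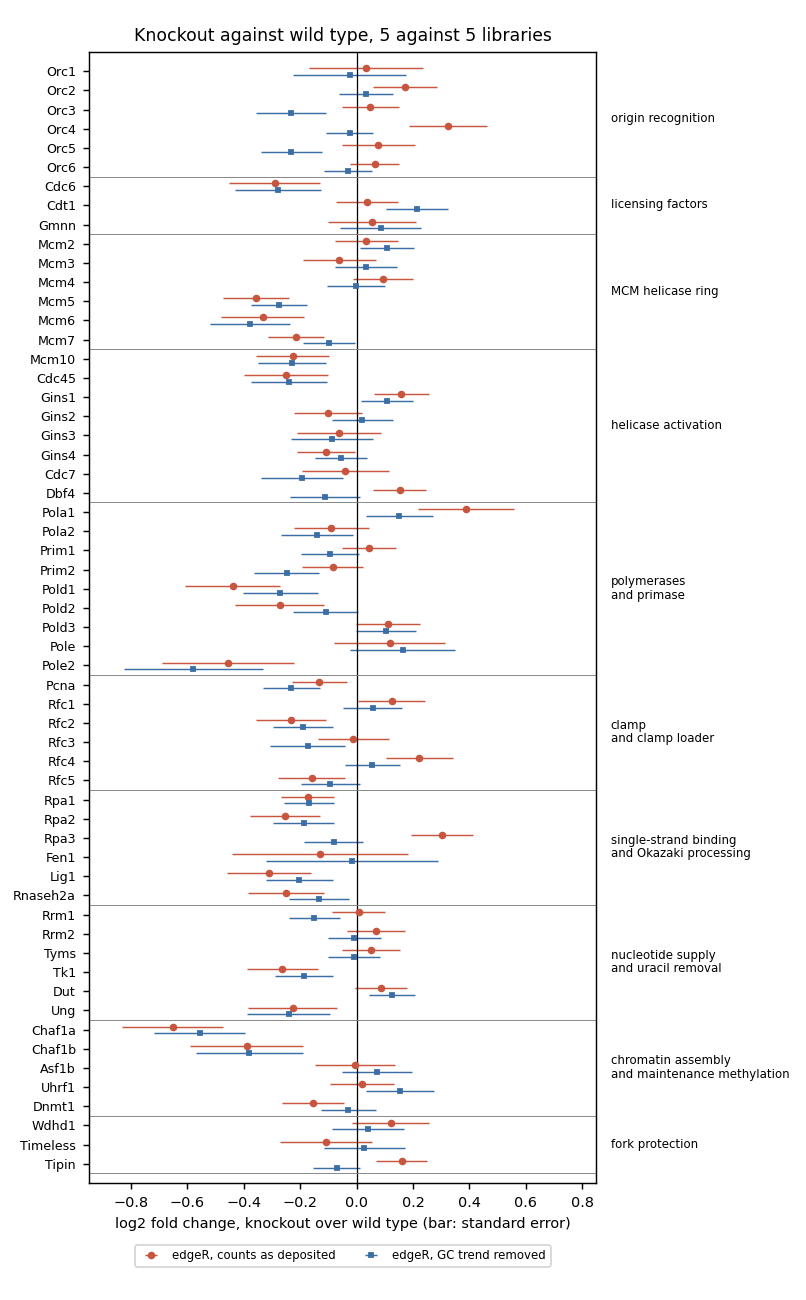
Log2 fold change, knockout over wild type, of the 58 genes by role, from edgeR on the counts as deposited (circles) and with each library's GC trend removed (squares); bars are standard errors, 5 against 5 libraries. Most estimates lie within 0.2 of 0, and those of Rpa3 and Orc4 move from 0.30 and 0.32 to -0.082 and -0.025 when the GC trend is removed.

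The number of calls depended on KO5. This library was the highest of the 5 knockout libraries for 32 of the 58 genes and lay above the wild-type mean for 41, whereas KO2 lay above it for 23, KO3 for 32, KO6 for 16 and KO8 for 20. The shares over all genes are not given for these orders, so they are not read as particular to the list. Without KO5, edgeR called 18 genes of the list at an adjusted p under 0.05: 5 higher (8.62%, against 12.3% of all genes) and 13 lower (22.4%, against 10.6% of all genes). The 5 were Orc2, Orc4, Pola1, Rfc4 and Rpa3, and the 13 were Mcm5, Mcm6, Cdc45, Pold1, Pold2, Rfc2, Rpa2, Lig1, Rnaseh2a, Tk1, Ung, Chaf1a and Chaf1b. When any of the other 9 libraries was left out instead, no gene of the list was called. KO5 also had the lowest Skil value of the 5 knockout libraries.

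The marked libraries pulled the other way. WT2 and KO4 stood in the opposite order to the group means for 44 of the 58 genes, KO4 was the highest of all 12 libraries for 25 genes, and WT2 was the highest for 16 and the lowest for 15. Here too the shares over all genes are not given. KO4 also had the largest sum over the list (8486 CPM), with 7512 CPM in WT2. With all 12 libraries in the fit, 0 of the 58 genes had an unadjusted p under 0.05, where 3.47% of all genes did, and the median log2 fold change of the list was -0.015.

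**Figure D3:**
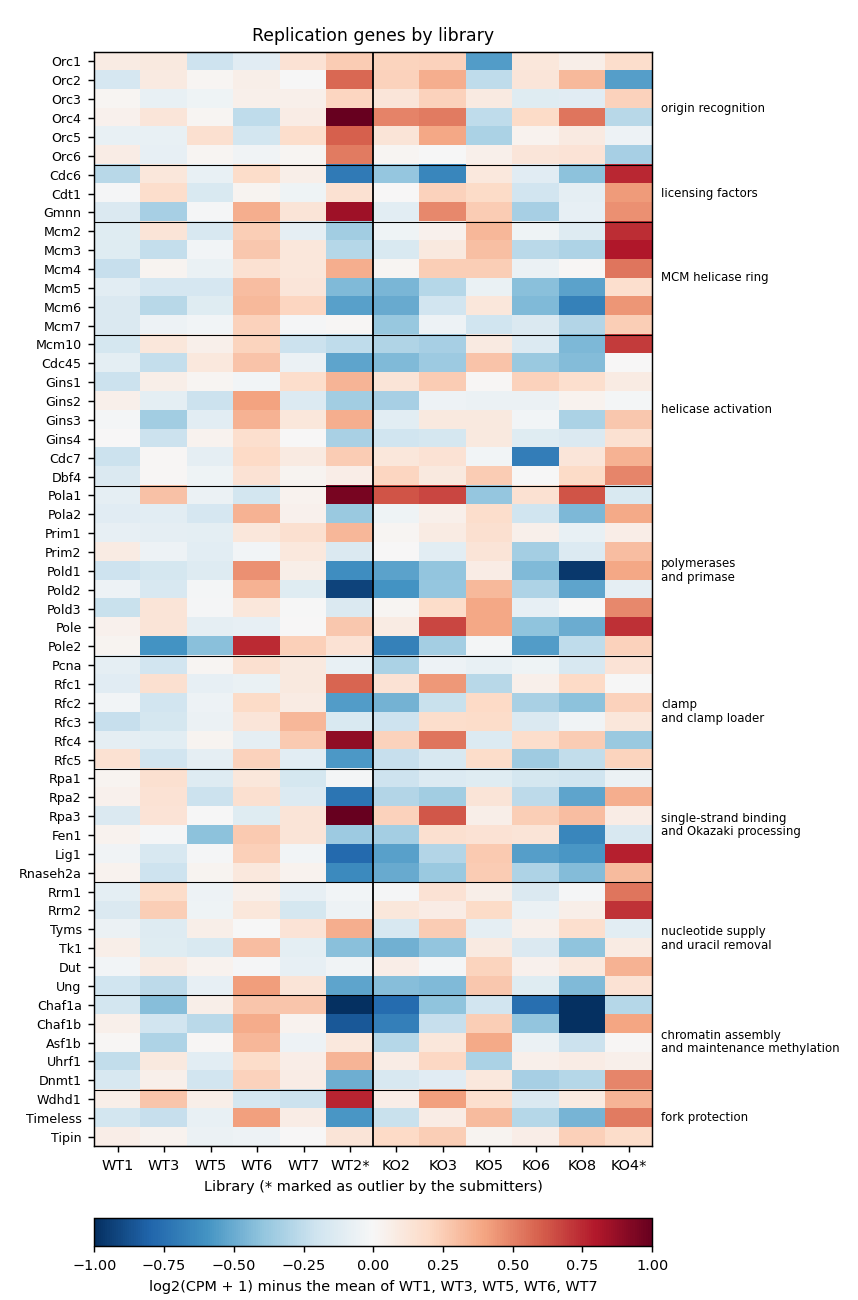
Level of each of the 58 genes (by role) in each of the 12 libraries, as log2(CPM + 1) minus the mean of WT1, WT3, WT5, WT6 and WT7; the colour scale ends at 1 above and below. KO5 and KO4 are mostly above the wild-type mean and KO2, KO6 and KO8 mostly below it, while WT2 holds both the highest values for 16 genes and the lowest for 15.

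A measure that moved with these library differences was GC content. Each library's trend of expression on transcript GC content, given as the log2 level of genes at 55% GC minus that at 40% GC relative to the mean library, was 0.23, 0.046, 0.20, 0.50 and 0.25 in the wild-type libraries and -0.38, -0.39, 0.35, -0.008 and -0.34 in the knockout libraries. KO5 stood with the wild-type libraries, and the other 4 knockout libraries below all 5 of them (exact permutation p for 5 against 5 = 0.0635). The marked libraries were in the opposite order, at -0.80 in WT2 and 0.36 in KO4. Across the 58 genes, which share these libraries, GC content and log2 fold change had a Spearman correlation of -0.59, beside -0.50 over 13432 genes. The 19 genes with the lowest GC content (34.2% to 46.0%) had a median log2 fold change of 0.069, with 14 positive and 5 negative, and the 20 with the highest (50.9% to 61.0%) one of -0.16, with 3 positive and 17 negative. All tested genes with a GC content up to 46.0% and above 50.6% had medians of 0.20 and -0.15.

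With each library's GC trend removed, the correlation across the 58 genes became 0.090, and the 3 GC ranges had medians of -0.093, -0.087 and -0.074. At an unadjusted p under 0.05 there were then 0 higher genes (7.48% of all genes) and 7 lower ones (12.1%, against 8.12% of all genes): Orc5, Mcm5, Mcm6, Prim2, Pole2, Pcna and Chaf1a. The sign turned for 17 of the 58 genes and the median became -0.09, beside -0.005 over all genes. With the GC trend removed and KO5 left out, a setting added after seeing the data, 9 genes were called at an adjusted p under 0.05, all lower (15.5%, against 5.94% of all genes), and 0 were higher (5.84% of all genes). They were Orc3, Mcm5, Mcm6, Cdc45, Prim2, Rfc2, Lig1, Chaf1a and Chaf1b. Mcm5, Mcm6, Cdc45, Rfc2, Lig1, Chaf1a and Chaf1b were thus called lower without KO5 whether or not the GC trend was removed. With KO5 in and the same filter, edgeR called none of them in either setting.

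**Figure D4:**
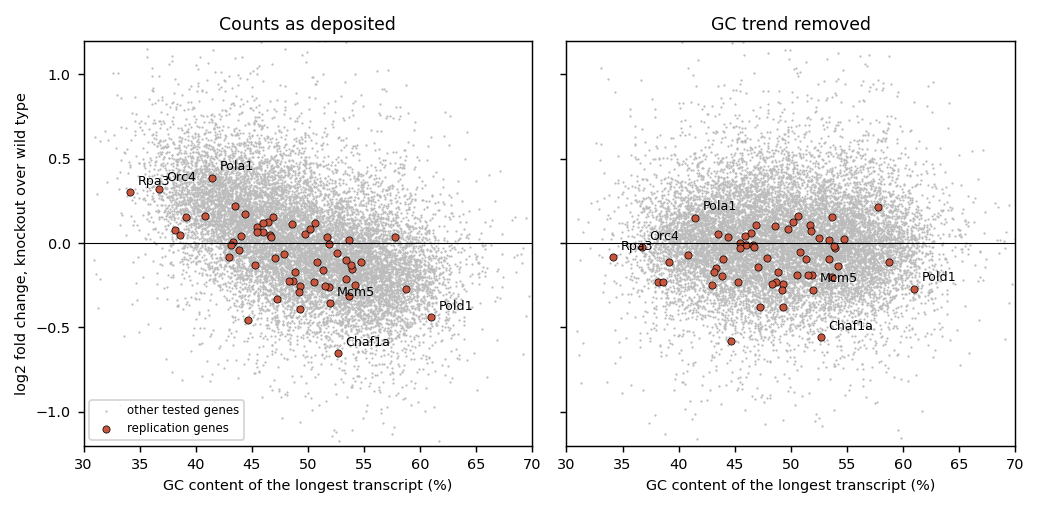
Log2 fold change, knockout over wild type, against GC content of the longest transcript, with the counts as deposited (left) and with each library's GC trend removed (right); large points are the 58 replication genes, small points the other tested genes, and the axis ends at 1.2 above and below. The slope across the replication genes (Spearman -0.59) is near flat after removal (0.090), and Rpa3 and Orc4, at the low end of GC content, move to about 0.

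The origin recognition complex, which marks where replication can start, had 6 of 6 positive fold changes with a median of 0.07, and 1 gene, Orc4, at an unadjusted p under 0.05. These genes are rich in A and T (median GC 41.5%), and with the GC trend removed the median was -0.028 and the estimate stayed positive for Orc2 only. Orc4 (chr2:48902824-48950277, minus strand, mm10), a subunit of the ATPase core, read 112, 118, 111, 91.1 and 115 CPM in wild type and 154, 156, 91.01, 125 and 159 CPM in knockout. All knockout libraries except KO5 were above all wild-type libraries, KO5 was just below the lowest of them, and the marked libraries were at 218 (WT2) and 89.7 CPM (KO4). Its log2 fold change was 0.32 (SE 0.14) with an adjusted p of 0.187 by edgeR. It became 0.44 (adjusted p = 0.00432) without KO5, and -0.025 with the GC trend removed. Orc1, the large subunit that is made anew late in G1, read 7.23, 7.33, 5.76, 6.19 and 7.59 CPM in wild type and 8.08, 8.12, 4.28, 7.40 and 7.12 CPM in knockout, where KO5 was the lowest of the 10 libraries. Its log2 fold change was 0.033 (SE 0.20).

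The 3 licensing factors had a median log2 fold change of 0.036. Cdc6, the ATPase that joins the origin complex to load the MCM ring, read 15.3, 20.4, 17.8, 21.4 and 19.6 CPM in wild type and 14.1, 11.6, 20.2, 17.3 and 13.9 CPM in knockout. KO5 and KO6 were within the wild-type range and the other 3 knockout libraries below it, and KO4 held the highest level of all 12 libraries (32.4 CPM, against 11.1 in WT2). The log2 fold change was -0.29 (SE 0.16), with an adjusted p of 0.295 by edgeR, and 0.051 over all 12 libraries. Cdt1, which brings the ring to the origin, read 75.5, 85.9, 68.5, 77.7 and 73.9 CPM in wild type and 76.3, 89.5, 87.1, 66.5 and 71.5 CPM in knockout, with both groups over the same range. Gmnn, the inhibitor of Cdt1 that blocks repeated licensing, read 53.4, 46.7, 58.7, 76.5 and 64.6 CPM in wild type and 54.9, 83.1, 70.8, 46.7 and 55.7 CPM in knockout, also over the same range. Their log2 fold changes were 0.036 (SE 0.11) and 0.055 (SE 0.15).

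The MCM ring, which unwinds DNA at the fork, gave the most genes at an unadjusted p under 0.05 of any role: 3 of 6, all lower (against 9.97% of all genes), with a median of -0.14 over the 6. There were 2 with the GC trend removed, Mcm5 and Mcm6, and the median was -0.05; over all 12 libraries there were 0, and it was 0.006. Mcm5 (chr8:75109569-75128439, plus strand) read 198, 189, 189, 264 and 232 CPM in wild type and 154, 174, 202, 159 and 146 CPM in knockout. The lowest wild-type library was at 189 CPM, a level that KO5 alone among the 5 knockout libraries exceeded. Means were 214 ± 32.8 and 167 ± 22.2 CPM (SD, n = 5), with a log2 fold change of -0.36 (SE 0.12), an adjusted p of 0.14 by edgeR and an exact permutation p of 0.0318. Without KO5 it was -0.43 (adjusted p = 0.00589), with the GC trend removed -0.28 (0.211), and over all 12 libraries, with WT2 at 156 and KO4 at 239 CPM, -0.19. The sign of Mcm5 was negative under all 25 alternatives, with adjusted p from 0.00589 to 1.

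Mcm6 (chr1:128331590-128359664, minus strand) read 171, 156, 174, 237 and 219.5 CPM in wild type and 133, 166, 204, 139 and 118 CPM in knockout, and Mcm7 (chr5:138164583-138172422, minus strand) read 189, 202, 206, 246 and 208 CPM and 160.4, 202, 182, 189 and 171 CPM. For Mcm6 the groups overlapped through KO3 and KO5, and for Mcm7 through KO3 and KO6, which were level with WT3 and WT1. The log2 fold change of Mcm6 was -0.33 (SE 0.15) (adjusted p = 0.2 by edgeR, 0.0097 without KO5) and that of Mcm7 -0.22 (SE 0.10) (0.221, 0.115 without KO5). Mcm7 overlaps Cops6 and Ap4m1 on the opposite strand and hosts the Mir25, Mir93 and Mir106b genes. With the GC trend removed the log2 fold change of Mcm7 was -0.097 and that of Mcm6 -0.38.

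The other 3 ring genes had estimates near 0. Mcm2 read 229, 274, 224, 296 and 234 CPM in wild type and 243, 257, 315, 243 and 228 CPM in knockout, Mcm3 99.2, 91.1, 106, 130.3 and 117 and 96.7, 115, 133, 89.1 and 86.8 CPM, and Mcm4 96.9, 116, 108, 126 and 123 and 115, 135, 135, 109 and 115 CPM. All 3 overlapped over most of their range, with log2 fold changes of 0.034 (SE 0.11), -0.061 (SE 0.13) and 0.093 (SE 0.10). In KO4, Mcm2 reached 417 and Mcm3 188 CPM, the highest of the 12 libraries, against 196 and 88.3 CPM in WT2.

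Each gene was also given as its share of the summed CPM of the 6, a measure added after seeing the data. The shares are not set per kilobase of exon. They therefore compare libraries for the same gene, not the amounts of the subunits with each other. The share of Mcm5 was 20.1%, 18.4%, 18.8%, 20.3% and 20.4% in wild type and 17.1%, 16.6%, 17.3%, 17.1% and 16.9% in knockout, so the groups did not overlap (exact permutation p = 0.00794). The share of Mcm4 was 9.71% to 11.3% in wild type and 11.5% to 13.3% in knockout, without overlap in the other direction (p = 0.00794, exact). Shares were not recomputed with the GC trend removed. Mcm4 has the lowest GC content of the ring (45.5%), and with that trend removed its log2 fold change was -0.002, beside 0.11 for Mcm2, 0.033 for Mcm3 and -0.28 for Mcm5. The mean share of Mcm2 was 23.1% ± 2.18 in wild type and 26.2% ± 0.988 in knockout (SD, n = 5 each, exact permutation p = 0.0317), with WT3 (26.6%) inside the knockout range. Shares of Mcm6 (17.5% and 15.3%, exact p = 0.0556), Mcm7 (19.3% and 18.5%, 0.524) and Mcm3 (9.95% and 10.5%, 0.246) overlapped. These 6 comparisons are not independent, since the shares sum to 100, and their p-values are unadjusted. How often shares within other sets of 6 genes fail to overlap is not given here. KO5 sat with the other knockout libraries for Mcm5, at 17.3%, although its Mcm5 level was the highest of the 5. In the marked libraries the share of Mcm5 was 16.8% (WT2) and 15.8% (KO4), so WT2 lay inside the knockout range. That of Mcm4 was 15.8% and 10.9%, the opposite order to the groups.

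**Figure D5:**
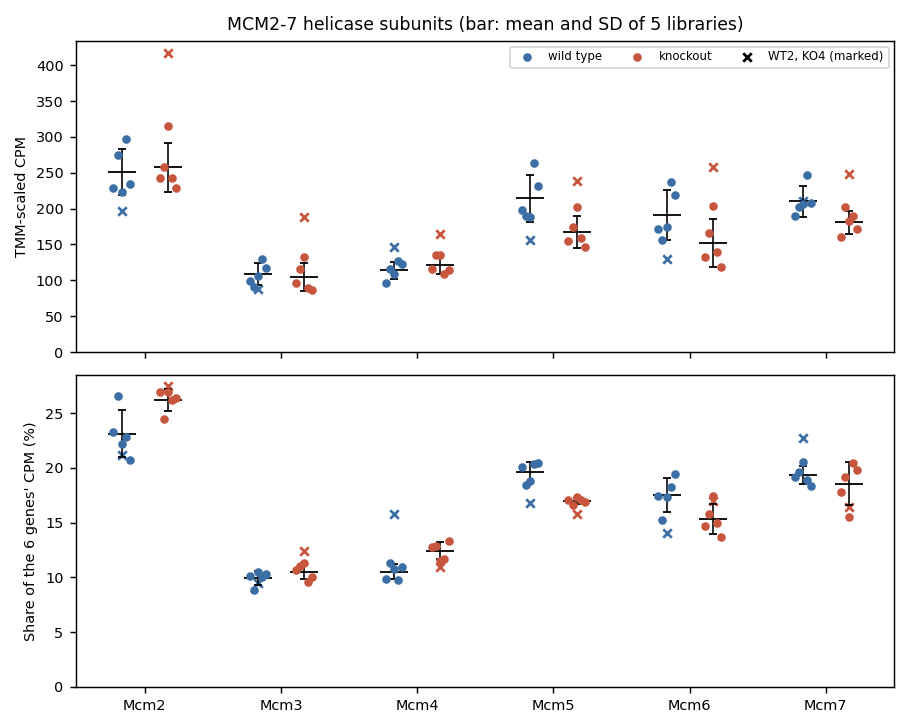
The 6 MCM ring genes in TMM-scaled CPM (top) and as a share of their summed CPM in each library (bottom); points are libraries, bars the mean and SD of 5, and crosses the marked libraries WT2 and KO4. Levels overlap between the groups for every gene, whereas the shares of Mcm5 (16.6% to 17.3% in knockout, 18.4% to 20.4% in wild type) and Mcm4 do not overlap among the 10 libraries. The share is a measure added after seeing the data and was not recomputed with the GC trend removed. For Mcm5, WT2 (16.8%) lies inside the knockout range.

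None of the 8 helicase activation genes had an unadjusted p under 0.05, and their median log2 fold change was -0.082. Cdc45, the factor that with GINS completes the moving helicase, read 39.4, 35.8, 45.5, 51.9 and 40.6 CPM in wild type and 30.9, 32.7, 51.6, 32.5 and 31.1 CPM in knockout. In 4 knockout libraries it stood below all wild-type libraries, and KO5 stood near WT6 at the top of both groups. Its log2 fold change was -0.25 (SE 0.15) with an adjusted p of 0.332 by edgeR, and -0.42 (0.0145) without KO5, beside a range of 0.0145 to 1 over the alternatives. The 4 GINS genes had estimates on both sides of 0: Gins1 had 0.16, Gins2 -0.10, Gins3 -0.063 and Gins4 -0.11. Mcm10, which helps the helicase start, had a log2 fold change of -0.23 (SE 0.13), Cdc7 -0.040 and its activating subunit Dbf4 0.15.

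Among the 9 polymerase and primase genes, at an unadjusted p under 0.05 Pola1 was higher and Pold1 lower; the median was -0.085. Pola1 (chrX:93304767-93632155, minus strand), the catalytic subunit of the priming polymerase alpha, read 67.9, 88.7, 69.5, 63.6 and 73.96 CPM in wild type and 112, 116, 55.1, 80.3 and 112 CPM in knockout. KO2, KO3 and KO8 were above all wild-type libraries and KO5 below all of them, while WT2 was at 140.3 and KO4 at 64.9 CPM. The log2 fold change was 0.39 (SE 0.17) (adjusted p = 0.198 by edgeR), 0.53 (0.00321) without KO5 and 0.15 with the GC trend removed. Pola2, its partner subunit, had -0.090, and the primase genes Prim1 and Prim2 had 0.044 and -0.085.

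Pold1 (chr7:44532746-44548849, minus strand), the catalytic subunit of the lagging strand polymerase and the most GC-rich gene of the list (61.0%), read 79.1, 80.9, 83.5, 126 and 95.1 CPM in wild type and 62.97, 69.5, 96.3, 67.1 and 46.3 CPM in knockout. Again KO5 reached the wild-type range and the other 4 knockout libraries stayed below it. The log2 fold change was -0.44 (SE 0.17) (adjusted p = 0.163 by edgeR), -0.59 (0.00456) without KO5 and -0.27 with the GC trend removed. The accessory subunits Pold2 and Pold3 had -0.27 and 0.11. For polymerase epsilon, Pole had 0.12, and Pole2 read 13.4, 8.39, 9.62, 22.8 and 15.7 CPM in wild type and 7.88, 10.2, 13.01, 8.63 and 10.9 CPM in knockout, where the wild-type spread covered the whole knockout range except KO2. Pole2 had a log2 fold change of -0.46 (SE 0.23) with an adjusted p of 0.261.

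The clamp and its loader showed 0 of 6 genes at an unadjusted p under 0.05 and a median of -0.072. Pcna (chr2:132249162-132253314, minus strand), the ring that holds polymerases on DNA and a common marker of cycling cells, read 229, 214, 248, 273 and 261 CPM in wild type and 196, 235, 231, 236 and 219 CPM in knockout. The 2 groups overlapped, with a log2 fold change of -0.13 (SE 0.098) and an adjusted p of 0.436 by edgeR. With the GC trend removed it was -0.23 (unadjusted p = 0.0304, adjusted p = 0.278). The loader genes ran from -0.23 (Rfc2) and -0.16 (Rfc5) through -0.012 (Rfc3) to 0.12 (Rfc1) and 0.22 (Rfc4). Rfc5 and Rfc2, whose values were the lowest, have the highest GC content of the 5 (51.4% and 50.5%).

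Among the 6 genes of single-strand binding and Okazaki processing, the unadjusted p was under 0.05 for Rpa3, which was higher, and for Lig1, which was lower; the median was -0.21. The 3 subunits of RPA, which coats exposed single strands as 1 complex, had estimates of different sign, positive for Rpa3 and negative for Rpa1 and Rpa2, but that of Rpa3 was negative with the GC trend removed and over all 12 libraries. Rpa3 (chr6:8255936-8259173, minus strand), the gene of the list with the least GC (34.2%), read 174, 211, 192, 177 and 209.8 CPM in wild type and 226, 296, 200.1, 228 and 238 CPM in knockout. All knockout libraries but KO5 were above all wild-type libraries, and WT2, a wild-type library, held the highest level of the 12 at 479 CPM. For Rpa3 the log2 fold change was 0.30 (SE 0.11) (adjusted p = 0.155 by edgeR), 0.36 (0.013) without KO5, -0.052 over all 12 libraries and -0.082 with the GC trend removed. Rpa2 read 87.9, 94.2, 73.3, 95.03 and 77.4 CPM in wild type and 69.3, 66.8, 92.97, 70.7 and 58.9 CPM in knockout, below all wild-type libraries in 4 knockout libraries and within their range in KO5. Its log2 fold change was -0.25 (SE 0.12), with an adjusted p of 0.243 (0.017 without KO5), and that of Rpa1 was -0.17 (SE 0.094).

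Lig1 (chr7:13277283-13311433, plus strand), the ligase that joins Okazaki fragments, read 102, 92.9, 103, 123 and 102 CPM in wild type and 70.95, 84.6, 125, 70.8 and 69.1 CPM in knockout. KO5 was above every wild-type library and the other 4 knockout libraries were below every one, and KO4 was higher still at 179 CPM. Its log2 fold change was -0.31 (SE 0.15) (adjusted p = 0.229 by edgeR), -0.50 (0.00233) without KO5 and 0.041 over all 12 libraries. Rnaseh2a, which removes ribonucleotides from DNA, had the same layout by library, with -0.25, and -0.41 (adjusted p = 0.00614) without KO5. Fen1 was counted at 2.77 ± 0.617 CPM in wild type and 2.54 ± 0.831 in knockout, levels that its opposite-strand overlap may have changed. Its log2 fold change was -0.13 (SE 0.31), so a difference was not detectable at these counts.

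The 6 genes of nucleotide supply and uracil removal had a median of 0.028 and 0 at an unadjusted p under 0.05. Rrm2, the S-phase subunit of the enzyme that makes deoxyribonucleotides, read 293, 384, 314, 349.7 and 286 CPM in wild type and 349, 340.1, 368, 310.4 and 337 CPM in knockout, with the knockout values inside the wild-type range, and had a log2 fold change of 0.069 (SE 0.10). Tk1, the thymidine kinase of the salvage route, read 109, 96.7, 94.8, 131 and 98.4 CPM in wild type and 75.04, 79.9, 112, 95.2 and 79.3 CPM in knockout. In KO2, KO3 and KO8 it was below all wild-type libraries, and its log2 fold change was -0.26 (SE 0.13) with an adjusted p of 0.232 by edgeR and 0.0208 without KO5. Rrm1, the other reductase subunit, had 0.007, thymidylate synthase Tyms 0.050, Dut 0.086 and the uracil glycosylase Ung -0.23.

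Chromatin assembly held the lowest fold change of the list. Chaf1a (chr17:56040439-56072289, plus strand), the large subunit of CAF-1, which places new histones behind the fork, read 21.97, 18.4, 26.2, 30.6 and 30.7 CPM in wild type and 14.3, 18.8, 21.8, 14.5 and 11.9 CPM in knockout. KO3 and KO5 reached into the wild-type range and KO2, KO6 and KO8 lay below all of it, while WT2, at 10.6 CPM, was the lowest of the 12 libraries and KO4 was at 20.4. Means were 25.6 ± 5.37 and 16.3 ± 3.97 CPM (SD, n = 5), with a log2 fold change of -0.65 (SE 0.18), an adjusted p of 0.131 by edgeR and an exact permutation p of 0.0318. It was -0.78 (adjusted p = 0.00263) without KO5, -0.56 (0.173) with the GC trend removed and -0.45 over all 12 libraries. The sign was negative under all 25 alternatives, with adjusted p from 0.00263 to 1. Chaf1a overlaps Ubxn6 on the opposite strand.

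For Chaf1b, the partner of Chaf1a in CAF-1, the log2 fold change was -0.39 (SE 0.20) (adjusted p = 0.261 by edgeR, and 0.0103 without KO5). The histone chaperone Asf1b, which hands histones to CAF-1, had -0.005. Uhrf1, which finds hemimethylated sites behind the fork, read 138, 176, 152, 187 and 172 CPM in wild type and 172, 189, 131, 170.4 and 173 CPM in knockout, and Dnmt1, the methyltransferase it recruits, read 123, 142, 120.5, 161 and 145 CPM and 123, 127, 148, 109 and 113 CPM. Both overlapped between the groups, with log2 fold changes of 0.020 (SE 0.11) and -0.15 (SE 0.11), and KO5 was the lowest knockout library for Uhrf1 and the highest for Dnmt1.

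The fork protection genes had log2 fold changes of 0.12 (Wdhd1, which couples helicase and polymerase alpha), -0.11 (Timeless) and 0.16 (Tipin, the partner of Timeless). Tipin read 277, 270.4, 253, 254 and 265 CPM in wild type and 303, 313, 269, 276 and 312 CPM in knockout. Its difference, though small (SE 0.089), had an exact permutation p of 0.0397 and an adjusted p of 0.302 by edgeR, and with the GC trend removed it was -0.071.

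A further 49 genes of replication and the G1/S step formed a list apart from the 58, also drawn up with earlier results of these data known. They gave the same count of calls, 0, and a median of 0.098. At an unadjusted p under 0.05, 11 of the 49 were higher, a larger share than the 11.8% of all genes. The 3 of 49 that were lower made a smaller share than the 9.97% of all genes. With the GC trend removed, 3 of 49 were higher and 3 lower, smaller shares than the 7.48% and 8.12% of all genes. The median was then 0.023. The 5 with the smallest p were Chtf18, of an alternative clamp loader (14.9 ± 3.34 CPM in wild type and 8.93 ± 1.15 in knockout, log2 fold change -0.73), its partner Chtf8 (98.8 and 74.5 CPM, -0.41), the histone chaperone Asf1a (211 and 274 CPM, 0.38), the MCM relative Mcm8 (24.3 and 32.9 CPM, 0.44) and Rmi1 (12.7 and 18.5 CPM, 0.54). Removing the GC trend gave -0.55 for Chtf18, -0.28 for Chtf8, 0.10 for Asf1a, 0.34 for Mcm8 and 0.28 for Rmi1. The adjusted p-values of the 5 by edgeR were between 0.124 and 0.132. E2f1, an activator of such genes, was at 215 ± 8.56 CPM in wild type and 219 ± 8.65 in knockout, with a log2 fold change of 0.033, and of 0.22 with the GC trend removed (unadjusted p = 0.0206 by edgeR).

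Set against mitotic genes, the sum over the 58 replication genes was 1.77 to 1.91 times that of 30 genes of G2 and mitosis in the wild-type libraries (1.81 ± 0.0575, SD, n = 5) and 1.64 to 1.82 times in the knockout libraries (1.72 ± 0.0708). The ranges overlapped through KO5, which at 1.82 was above 4 of the 5 wild-type libraries. The ratio was 1.66 in WT2 and 1.74 in KO4.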

How the data were processed

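RNA was sequenced from 12 libraries of laser-captured external granule layer, 6 wild-type and 6 knockout. The protocols name RNA both from cerebellum and from the micro-dissected layer without saying which library got which; all 12 carry the layer as their source label. Per the labels' protocols, the NEBNext Ultra kit was used, with which reads carry no strand. The authors deposited raw counts per gene in HTSeq format, 1 table per library, without normalization. The genome build was mm10 and the reads passed through STAR 2.5.3a, cutadapt 1.16, HTSeq 0.6.1 and DESeq2, in no stated order, per the submitters' processing notes; their settings and annotation are not given in the sources. Records placed at several positions made up 64.4% to 67.6% of each table's total and were left out with the other summary rows, which can lower genes with near-identical copies. Within groups, all 30 pairs of libraries differed by more than counting noise (6.51 to 94.1 in chi-square over its degrees of freedom).

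Gene identifiers were matched to symbols and positions in GENCODE M21 (53274 of 53379). Genes were filtered with filterByExpr (minimum count 10), scaled with TMM factors and tested with edgeR 4.0.16 (quasi-likelihood, robust, in R 4.3.3) on WT1, WT3, WT5, WT6 and WT7 against KO2, KO3, KO5, KO6 and KO8, with Benjamini-Hochberg adjustment over all genes and calls at 0.05. Levels are TMM-scaled CPM. Single genes also had a two-sided exact permutation test over libraries, on log2(CPM + 1). GC trends were removed by an offset, a spline with 5 degrees of freedom of log2 CPM on transcript GC content per library. Alternatives were DESeq2 1.42.0, limma voom (limma 3.58.1), sva 3.50.0, other scalings and filters, a Y-linked covariate, the replicate number as a block, all 12 libraries, KO2 as wild type, and each library left out.

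The procedure was tested on simulated counts. The 58 genes and the other gene lists were chosen with earlier results of these data known. Values are given library by library for the 12 genes with the smallest p and 15 set genes, 24 in all, and for up to 5 of the other replication genes.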

Additional observations from a re-analysis of the deposited data

Results flagged for a closer look

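Among 118 groups of 5 libraries (58 replication genes and Skil, wild type and knockout apart), 11 (9.32%) held a library set apart from the other 4 by a gap that chance gives in about 1 of 20 such groups. KO5 was that library most often. It was the highest knockout library for Cdc45 (51.6 CPM, the next at 32.7), Gins4 (76.7, the next at 65.7), Pold2 (139, the next at 89.1), Lig1 (125, the next at 84.6) and Rnaseh2a (85.3, the next at 57.4), and the lowest for Orc1 (4.28, the next at 7.12). In wild type, WT6 was the lowest for Orc4 (91.1 CPM, the next at 111) and the highest for Pold2 (141, the next at 109), and WT3 was the lowest for Rnaseh2a (61.6, the next at 72.8). Among the knockout libraries, KO2 was the lowest for Gins2 (96.5, the next at 117) and KO6 for Cdc7 (16.4, the next at 26.7).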

How the results depend on the processing

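Genes called over all genes tested numbered 3 in the comparison of 5 against 5 libraries, 470 with DESeq2, 5 with the GC trend removed, 1598 with the GC trend removed and without KO5 (chosen after seeing the data), 0 with KO2 counted as wild type, 1 over all 12 libraries, 965 with no filter beyond a count of 1, 0 with the replicate block, 0 with the block and the GC trend removed, and 0 to 3102 when each library was left out in turn. Replication genes called numbered 0, and 1 with DESeq2, 9 with the GC trend removed and without KO5, 3 with no filter, and 0 to 18 when each library was left out, the 18 being without KO5. Replication genes at an unadjusted p under 0.05 numbered 9, and 3 with 1 surrogate variable, 1 with the GC trend removed over all 12 libraries, 25 with the GC trend removed and without KO5, 2 with KO2 counted as wild type, 0 over all 12 libraries, 15 with limma voom on 12 libraries, 16 with no filter, 0 with the replicate block with or without the GC trend removed, and 3 to 26 when each library was left out. Without KO2 the number was 4, without KO3 5, without KO8 3 and without WT6 3. Other replication and G1/S genes called numbered 0, and 3 with DESeq2, 8 with the GC trend removed and without KO5, 4 with no filter, and 0 to 13 when each library was left out. The median log2 fold change of the 58 genes stayed between -0.135 and 0.033. The cause of these shifts was not tested.

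The log2 fold change of Skil passed the threshold with 1 surrogate variable (-1.06), DESeq2 (-0.70), the GC trend removed (-0.94), the same over all 12 libraries (-1.04) or without KO5 (-0.88), no filter (-0.70) and without KO5 (-0.59, the smallest size of the leave-one-out values, which ran from -0.78).

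Of the 24 genes given library by library, 7 (Chaf1a, Mcm5, Pold1, Mcm6, Mcm7, Pole2 and Pcna) kept their sign under all 25 alternatives, Tk1 was at 0.0 with 1 surrogate variable and negative otherwise, and the other 16 turned in at least 1, none of them past the threshold in the comparison. For those whose log2 fold change turned, the values were these. With 1 surrogate variable it was -0.043 for Orc4, -0.10 for Pola1, 0.15 for Mcm3, -0.30 for Orc1, 0.054 for Cdc45 and -0.10 for Uhrf1. With the GC trend removed it was -0.082 for Rpa3, -0.025 for Orc4, 0.033 for Mcm3, -0.002 for Mcm4, -0.024 for Orc1 and -0.009 for Rrm2. With the GC trend removed over all 12 libraries it was -0.087 for Rpa3, -0.071 for Orc4, 0.090 for Lig1, 0.007 for Rpa2, 0.21 for Mcm3, -0.011 for Orc1, 0.056 for Cdc6, -0.040 for Gmnn and 0.10 for Dnmt1. With the GC trend removed and without KO5 it was -0.14 for Rpa3, -0.062 for Mcm4 and -0.051 for Rrm2. With KO2 counted as wild type it was -0.063 for Orc1. With a Y-linked covariate it was -0.019 for Gmnn. Over all 12 libraries it was -0.052 for Rpa3, 0.041 for Lig1, 0.17 for Mcm3, 0.051 for Cdc6, -0.051 for Gmnn, -0.038 for Uhrf1 and 0.044 for Dnmt1. With library size alone as the scale it was -0.045 for Mcm2, -0.061 for Orc1, -0.046 for Cdt1, -0.031 for Gmnn, -0.014 for Rrm2 and -0.073 for Uhrf1. With the replicate block it was 0.042 for Mcm3, -0.001 for Orc1, -0.038 for Rrm2 and -0.080 for Uhrf1. With the replicate block and the GC trend removed it was -0.038 for Orc4, -0.019 for Pola1, 0.093 for Mcm3, -0.054 for Orc1, -0.10 for Rrm2 and -0.013 for Uhrf1. When each library was left out in turn, the values ran from -0.025 to 0.17 (Orc1), -0.017 to 0.088 (Cdt1), -0.070 to 0.15 (Gmnn), -0.038 to 0.096 (Uhrf1), -0.049 to 0.099 (Mcm2) and -0.16 to 0.011 (Mcm3).

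Among the 10 compared libraries, replicate numbers 3, 5 and 6 are in both groups. The deviations of libraries of the same number had correlations of 0.111, -0.047 and 0.094, and each wild-type library was closest to a knockout library of another number. These 3 values show no pairing by number but are too few to exclude it. The replicate block (0 replication genes at an unadjusted p under 0.05) rests on a number alone. Low counts limit the lowest genes most: Fen1, counted at 2.77 CPM in wild type, had a standard error of 0.31 on the log2 scale, against 0.087 for Orc6.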

Other observations

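WT6, the library with the fewest counts (7520076), was the highest of the 10 compared libraries for 23 of the 58 replication genes and the lowest for 0, and its GC trend was the highest of the 12 (0.50). KO3 was the highest of the 10 for 17 genes. KO8 was the lowest for 13 genes and KO2 for 11. Shares over all genes are not given for these counts. Over the 20 replication genes with the highest GC content, the median of log2(CPM + 1) minus the wild-type mean was 0.25 in WT6, 0.13 in KO5 and 0.24 in KO4, and -0.31 in KO2, -0.13 in KO3, -0.27 in KO6, -0.36 in KO8 and -0.43 in WT2. The part that GC content or depth has in these orders was not tested.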
